A study of Mus musculus with 6 samples.

Results

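Mast cells and basophils are granulocytes that carry the receptor for IgE and store proteases and histamine, and 10 genes that mark them were followed in RNA-seq of CD8T cells taken from coculture. The genes are Tpsb2, Tpsab1, Cpa3, Cma1, Mcpt8, Prss34, Fcer1a, Ms4a2, Gata2 and Hdc, found by symbol among the 54532 genes of the deposited count table. They were selected on what is known of these cells and with the control against DB2313 difference of these same samples already known, so their own differences are given as a description and with no test. Of the 10 members, 9 were among the 14883 genes with enough counts to be tested, and Tpsab1 was not.

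CD8T cells from mouse spleen were activated with beads carrying anti-CD3 and anti-CD28, and were then kept for 24 hr with macrophages drawn from the peritoneum after thioglycolate injection. In both groups the macrophages had first received IFN-γ at 10 ng/mL for 12 hr. The 3 control samples were incubated with such macrophages without DB2313, and the 3 DB2313 samples with macrophages given DB2313, which inhibits the transcription factor Spi1 and which the methods list at 14 nM. The labels call the partner DC cells where the methods call them macrophages, and neither gives the strain, age or sex of the mice behind the cultures or says that samples of a group came from separate cultures, so the spread between them may be technical. The question was how treating the partner cells with DB2313 changed the transcripts of the T cell samples, and no library of CD8T cells or of macrophages cultured alone was analysed here.

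Mature mast cells live in tissues and fill their granules with tryptases, chymases and carboxypeptidase, whereas basophils circulate in blood and, in the mouse, store a different pair of serine proteases. Both bind IgE through a receptor of alpha, beta and gamma chains, and crosslinking of that receptor releases histamine and sets off the synthesis of leukotrienes and prostaglandins. Both develop from bone marrow progenitors under the factor Gata2, with Kit as the growth receptor of mast cells and interleukin 3 as a main growth factor of basophils.

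The libraries held between 16611975 and 18596217 counts on genes. All 20 T cell markers of a fixed list were counted in every library, but so were most macrophage markers, and the libraries of a group differed from each other by more than sampling noise (chi-square per gene of 2.54 to 3.999 within the groups, against 51.8 to 56.0 between them). At an adjusted p under 0.05 and an absolute log2 fold change over 1 (quasi-likelihood test of edgeR, Benjamini-Hochberg adjusted), 789 genes were lower and 204 were higher in the DB2313 group. Scaling the libraries to the T cell markers instead gave 2540 lower and 51 higher genes and shifted the median log2 fold change of all tested genes from 0.019 to -0.57. Levels are given as CPM, the usual counts relative to library size, after TMM scaling, and fold changes as DB2313 against control.

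The proteases of the members were divided between the groups. Tpsb2, Cpa3 and Cma1, which code for a tryptase, a carboxypeptidase and a chymase of mast cell granules, were lower in every DB2313 library than in every control library. Of these, Cpa3 is found in basophils too. Mcpt8 and Prss34, which code for the serine proteases of mouse basophils, were higher in every DB2313 library, as was Fcer1a, the alpha chain of the IgE receptor, although all of these turned slightly below 0 when libraries were scaled to the T cell markers. Ms4a2 and Gata2 overlapped between the groups, and Hdc was slightly lower. Because these are bulk libraries, fewer cells of a type and less RNA per cell cannot be told apart in any of these values.

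Against both thresholds, 3 of the 9 members with enough counts stood lower (background 5.3% of all tested genes) and 0 stood higher (background 1.37%). At the adjusted p alone, 4 were lower (background 24.6%) and 3 higher (background 20.8%). In CPM after TMM scaling, the groups did not overlap in 4 lower members (background 27.5%) and in 3 higher ones (background 25.6%). Nothing is read from these shares, since the members were chosen with the contrast known.

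Tpsb2 (ENSMUSG00000033825, chr17:25366550-25368094, + strand) codes for a tryptase stored in mast cell granules and gave the widest difference among the members. It had 1850, 1946 and 1797 counts in the control libraries and 52, 55 and 31 in the DB2313 libraries. All 3 DB2313 libraries were far below all 3 control libraries, and the DB2313 library with 31 counts was the lowest. Its level was 108.5 ± 5.46 CPM against 2.57 ± 0.797 CPM with DB2313 (SD, n = 3 each), a log2 fold change of -5.40 (standard error 0.11). Of the 50-base windows along its transcripts, 0 occurred in another annotated gene, so reads of this length can be told from those of the related tryptases.

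Tpsab1 (ENSMUSG00000024173, chr17:25343245-25345562, - strand), the gene of the other main mast cell tryptase, was barely detected. It had 1, 1 and 5 counts in the control libraries and 0 in each DB2313 library, where a count of 0 allows up to 3 counts. The libraries of the groups therefore lay around or under the limit of detection, and no fold is given.

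Cpa3 (ENSMUSG00000001865, chr3:20215620-20242181, - strand) codes for carboxypeptidase A3, which is found in mast cells and basophils, and was the most abundant member of the control group. It had 8217, 7866 and 7646 counts in the control libraries and 3477, 3200 and 3362 in the DB2313 libraries. Each DB2313 library held fewer than 1 of every 2 counts of any control library. The level was 460.1 ± 6.19 CPM against 186.2 ± 3.003 CPM (SD, n = 3 each), a log2 fold change of -1.31 (standard error 0.034). The microRNA gene Mir7007 lies inside Cpa3, with 70 bases in common, and had 5 to 12 counts. How reads over those bases were assigned is not given in the sources used here.

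Cma1 (ENSMUSG00000022225, chr14:55941451-55944675, - strand) codes for a mast cell chymase. It had 511, 469 and 471 counts in the control libraries and 159, 200 and 144 in the DB2313 libraries. The DB2313 libraries were all lower, and the one with 200 counts stood above the other two. The level was 28.1 ± 0.760 CPM against 9.38 ± 2.06 CPM (SD, n = 3 each), a log2 fold change of -1.59 (standard error 0.11). Of its 50-base windows, 5.38% were shared with other genes, most often Gm48934, a gene with 0 counts in this table.

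Mcpt8 (ENSMUSG00000022157, chr14:56082166-56085273, - strand), named as a mast cell protease but known as a marker of mouse basophils, differed in the other direction. It had 3446, 3485 and 3312 counts in the control libraries and 5423, 5007 and 4978 in the DB2313 libraries. The lowest DB2313 library stood well above the highest control library. The level was 198.7 ± 6.68 CPM against 285.9 ± 13.3 CPM (SD, n = 3 each), and the log2 fold change was 0.52 (standard error 0.039), turning to -0.068 when libraries were scaled to the T cell markers.

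Prss34 (ENSMUSG00000056399, chr17:25298394-25300161, + strand), the gene of the basophil protease Mcpt11, was close to Mcpt8 in level and in difference. It had 4312, 4102 and 3794 counts in the control libraries and 5749, 5208 and 5786 in the DB2313 libraries. The groups were again apart. The level was 236.5 ± 4.08 CPM against 310.3 ± 4.69 CPM (SD, n = 3 each), a log2 fold change of 0.39 (standard error 0.034), or -0.20 with scaling to the T cell markers.

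Fcer1a (ENSMUSG00000005339, chr1:173221284-173227214, - strand) codes for the chain of the receptor that binds IgE. It had 427, 437 and 408 counts in the control libraries and 634, 610 and 631 in the DB2313 libraries, with no overlap. The level was 24.7 ± 0.908 CPM against 34.8 ± 0.832 CPM (SD, n = 3 each), a log2 fold change of 0.50 (standard error 0.071), or -0.097 with scaling to the T cell markers. The 3 higher members thus fell below 0 under that scaling. It shifts all genes by nearly the same amount, so their place above the median of all tested genes, there -0.57, could not change.

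Ms4a2 (ENSMUSG00000024680, chr19:11615523-11623719, - strand) codes for the beta chain of the same receptor, which amplifies its signal. It had 709, 630 and 578 counts in the control libraries and 688, 679 and 782 in the DB2313 libraries. The groups overlapped, and the levels of 37.1 ± 2.03 CPM and 39.8 ± 2.63 CPM (SD, n = 3 each) gave a log2 fold change of 0.10 (standard error 0.069), or -0.49 with scaling to the T cell markers. Of its 50-base windows, 2.10% were shared with other genes, most often Ms4a4b.

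Gata2 (ENSMUSG00000015053, chr6:88193891-88207032, + strand), the transcription factor that both cell types need, was at nearly the same level in both groups with TMM scaling. It had 1244, 1162 and 1102 counts in the control libraries and 1232, 1196 and 1188 in the DB2313 libraries, which overlapped. The level was 68.0 ± 0.867 CPM against 67.1 ± 2.79 CPM (SD, n = 3 each), a log2 fold change of -0.019 (standard error 0.051). That value was 0.076 with library size scaling, 0.045 with upper quartile scaling and 0.010 without DB2313 replicate 3, so the sign depended on the scaling and on that library. With scaling to the T cell markers it was -0.61, close to the median of all tested genes under that scaling.

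Hdc (ENSMUSG00000027360, chr2:126593667-126619299, - strand) codes for histidine decarboxylase, which makes histamine. It had 821, 746 and 775 counts in the control libraries and 674, 710 and 769 in the DB2313 libraries. The raw counts overlapped, and so did its share of all counts, 0.00419% to 0.00456% in the control and 0.00376% to 0.00434% in the DB2313 libraries. Only the CPM values after TMM scaling lay apart. The level was 45.4 ± 1.97 CPM against 40.0 ± 3.01 CPM (SD, n = 3 each), a log2 fold change of -0.18 (standard error 0.067). That value was -0.090 with library size scaling, -0.12 with upper quartile scaling and -0.78 with scaling to the T cell markers. Hdc no longer counted as lower at the adjusted p alone under library size scaling, upper quartile scaling or DESeq2. The same held on dropping the control library with 821 or 775 counts, or the DB2313 library with 674.

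**Figure D1:**
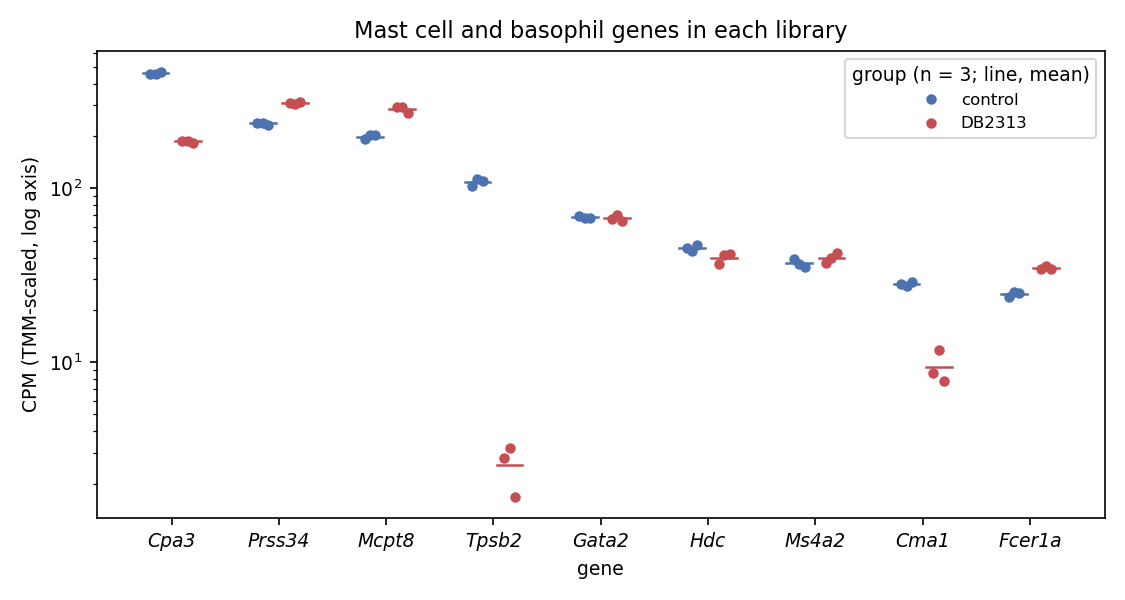
Level of the 9 members with enough counts in each library, in CPM on a log axis; points are single libraries of the control and DB2313 groups and lines are group means. The DB2313 points lie below the control points for Tpsb2, Cpa3, Cma1 and Hdc, above them for Mcpt8, Prss34 and Fcer1a, and among them for Ms4a2 and Gata2.

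**Figure D2:**
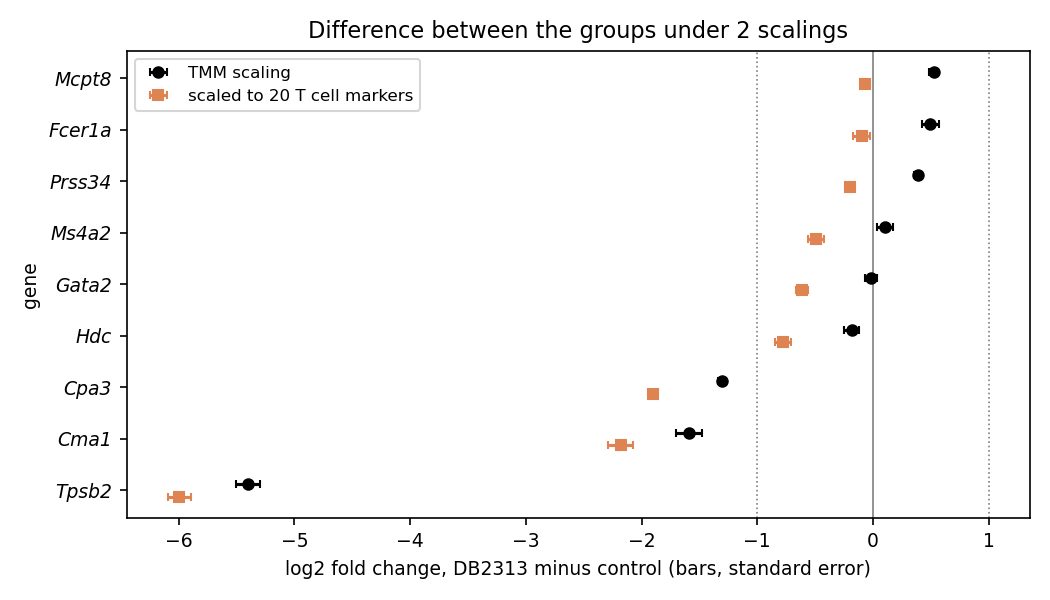
Log2 fold change (DB2313 minus control) of the 9 members with enough counts, with standard errors, under TMM scaling and under scaling to the T cell markers. Values run from -5.40 for Tpsb2 to 0.52 for Mcpt8 with TMM scaling, and from -5.99 to -0.068 with scaling to the T cell markers.

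Under leaving out each library in turn, the log2 fold change of Tpsb2 lay between -5.59 and -5.17, that of Cpa3 between -1.31 and -1.29, and that of Cma1 between -1.77 and -1.47. The higher members were as steady, between 0.50 and 0.56 for Mcpt8, between 0.38 and 0.40 for Prss34 and between 0.47 and 0.52 for Fcer1a. No single library decided which side of 0 these 6 members were on.

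Levels of different genes can be set side by side only per length, so CPM was divided by the gene length in the table, in kb. In the control group the order began with Cpa3 at 303.3 ± 4.08 CPM per kb, followed by Mcpt8 at 199.1 ± 6.69 and Prss34 at 194.5 ± 3.35 CPM per kb, a pair that differed by less than the sum of its SDs. Tpsb2 followed at 100.4 ± 5.05 CPM per kb, and then Cma1 at 25.8 ± 0.698 and Fcer1a at 24.7 ± 0.909 CPM per kb, which again differed by less than that. The lowest were Ms4a2 at 13.2 ± 0.721, Gata2 at 12.6 ± 0.161, also a pair within the sum of its SDs, Hdc at 7.11 ± 0.308 and Tpsab1 at 0.0667 ± 0.0686 CPM per kb (SD, n = 3 each throughout).

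In the DB2313 group the order was led by the basophil proteases, and the mast cell tryptase was next to last. Mcpt8 reached 286.4 ± 13.3 CPM per kb and Prss34 255.2 ± 3.86 CPM per kb, both above Cpa3 at 122.7 ± 1.98 CPM per kb. Fcer1a, at 34.9 ± 0.833 CPM per kb, was above Ms4a2 at 14.2 ± 0.934, Gata2 at 12.4 ± 0.516 and Cma1 at 8.61 ± 1.89 CPM per kb. Hdc, at 6.26 ± 0.471 CPM per kb, differed from Cma1 by less than the sum of their SDs, and Tpsb2 was at 2.38 ± 0.737 CPM per kb (SD, n = 3 each).

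Together the 10 members took 0.116% to 0.117% of all counts in the control libraries and 0.0996% to 0.102% in the DB2313 libraries. The make-up of this sum differed between the groups in the proteases and also in Fcer1a, Ms4a2 and Gata2, while the share of Hdc overlapped. Cpa3 held 37.7% to 38.4% of the members' counts in the control libraries and 18.97% to 19.22% in the DB2313 libraries. Tpsb2 went from 8.59% to 9.34% in the control libraries to between 0.175% and 0.326%. Mcpt8 held 16.0% to 16.7% and then 28.2% to 30.0%, and Prss34 19.1% to 20.02% and then 30.9% to 32.7%. Mcpt8 and Prss34 together thus made up most of the members' counts in the DB2313 libraries only.

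**Figure D3:**
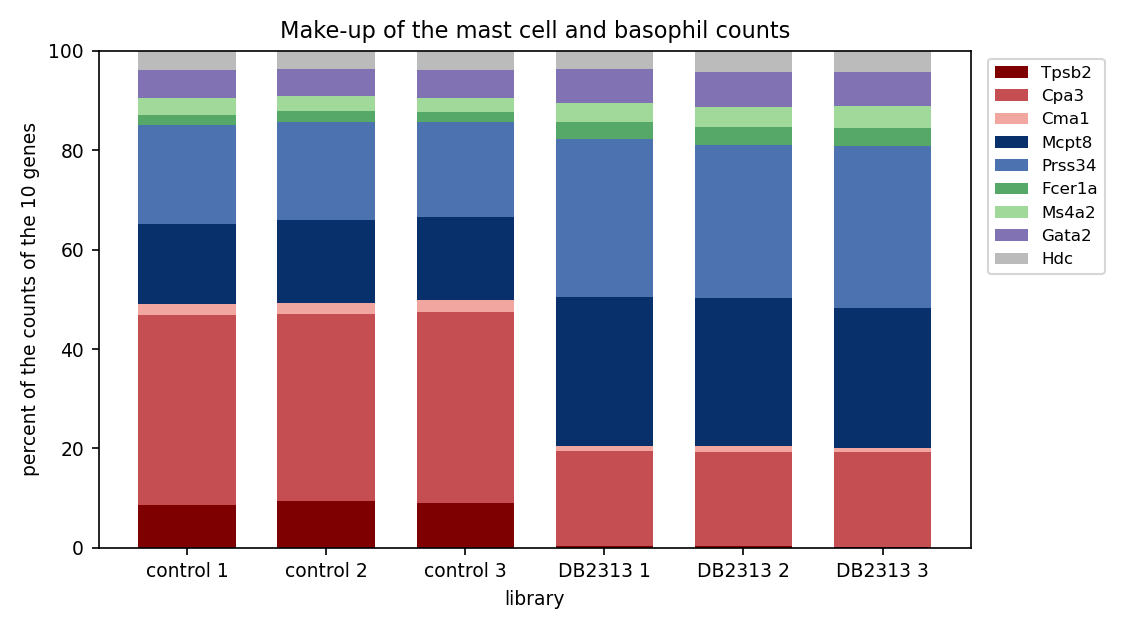
Share of the members' summed counts held by each member in each of the 6 libraries, in percent; each bar is 1 library and starts at 0. Cpa3 shrinks from 37.7% to 38.4% in the control libraries to 18.97% to 19.22% in the DB2313 libraries, while Mcpt8 and Prss34 widen and Tpsb2 nearly vanishes.

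Ratios of counts within a library do not depend on how libraries are scaled. There were 2.32 ± 0.0641 counts of Cpa3 for each count of Mcpt8 in the control libraries and 0.652 ± 0.0204 in the DB2313 libraries (SD, n = 3 each), a 3.55-fold difference. The ratio of Tpsb2 to Prss34 was 0.459 ± 0.0260 and 0.00832 ± 0.00268 (SD, n = 3 each), 55.2-fold apart. The genes on each side of this divide did not all move alike.

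Among the lower proteases, Tpsb2 was lower relative to Cpa3 as well, at 0.236 ± 0.0111 against 0.0138 ± 0.00411 (SD, n = 3 each). The ratio of Cma1 to Cpa3 was 0.0611 ± 0.00134 against 0.0504 ± 0.0106 (SD, n = 3 each), with overlap between the libraries of the groups. The members that were higher kept closer ratios. Fcer1a to Mcpt8 was 0.124 ± 0.00112 against 0.122 ± 0.00492, and Mcpt8 to Prss34 was 0.841 ± 0.0377 against 0.922 ± 0.0539 (SD, n = 3 each), both with overlap. The ratio of the alpha to the beta chain of the IgE receptor, Fcer1a to Ms4a2, was 0.667 ± 0.0566 against 0.876 ± 0.0606 (SD, n = 3 each), without overlap.

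Both loci that hold several of these proteases had a member on each side of 0 with TMM scaling, whereas with scaling to the T cell markers Prss34 and Mcpt8 also lay below 0. Tpsb2 and Prss34 lie 68156 bases apart, start to start, on chromosome 17, and Mcpt8 and Cma1 140598 bases apart on chromosome 14. Of the other protein-coding genes within 100 kb of a member at the tryptase locus, 8 are described here, of which 7 could be tested, 2 fell and 0 rose past both thresholds. Those that fell were Tpsg1, a further tryptase gene whose start is 2.72 kb from that of Tpsb2, and Cacna1h, a calcium channel gene. Cacna1h had 40, 43 and 43 counts in the control libraries and 1, 2 and 7 in the DB2313 libraries, a log2 fold change of -3.67 (standard error 0.46, adjusted p = 5.32e-07). The other 5 of these, Unkl, Gnptg, Tsr3, Baiap3 and Prss28, had log2 fold changes between 0.25 and 1.09, and none passed both thresholds. Tpsg1 and Cacna1h overlap by 158 bases on opposite strands, so without a known strand setting some of their reads cannot be told apart.

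At the chymase locus, 3 of 14 neighbours could be tested and none passed both thresholds. Ctsg, the cathepsin G gene next to Mcpt8, was at a log2 fold change of 0.92 (standard error 0.042, adjusted p = 1.09e-14). The mast cell proteases between Cma1 and Mcpt8 had at most 7 counts in any library. Around Ms4a2, 4 of 7 neighbours could be tested, and Oosp1 fell with a log2 fold change of -2.60 (standard error 0.38, adjusted p = 4.29e-06). Ms4a3, on the other side of Ms4a2 from Ms4a6d, was at 0.52 and Ms4a6d at -0.010.

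**Figure D4:**
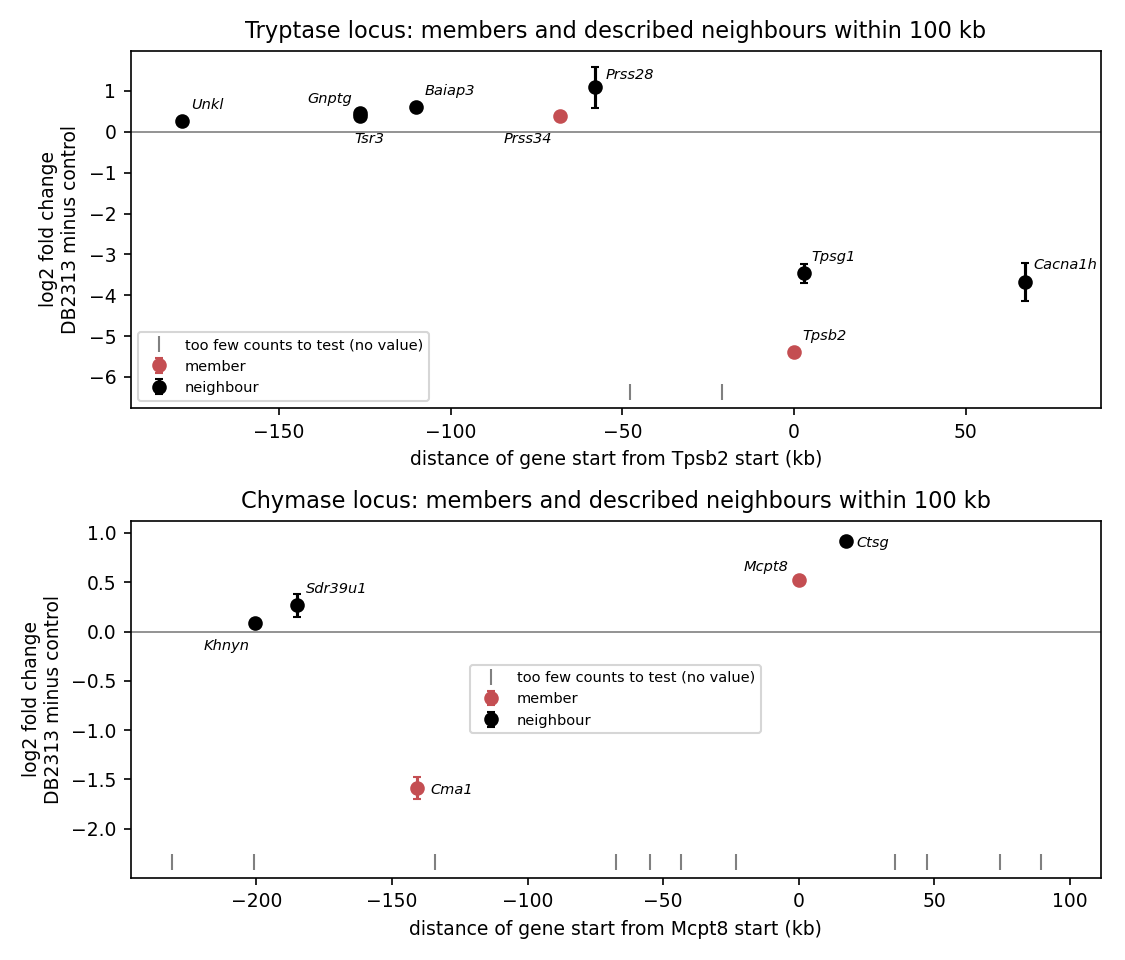
Log2 fold change (DB2313 minus control, bars are standard errors) of members and of the described protein-coding genes within 100 kb of a member, against the distance in kb of the gene's start from that of Tpsb2 (upper panel) or Mcpt8 (lower panel). Tpsb2, Tpsg1 and Cacna1h lie far below 0 while Prss34 at the same locus lies at 0.39, and Cma1 lies at -1.59 with Mcpt8 at 0.52; grey ticks are genes with too few counts.

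Promoter sequence was compared as a description, over the 250 bases before each start in RefSeq (GRCm38.p6). The table held 8 of the members, and no entry for Tpsb2 and Tpsab1. A GATA site, AGATAA with T also allowed as its first letter and G as its last, on either strand, was found for 6 of the 8 (Cpa3, Cma1, Prss34, Fcer1a, Ms4a2 and Hdc), against 26.5% of all 32851 promoter windows. The Spi1 core GAGGAA was found on either strand in Mcpt8 and Fcer1a, against 23.3% of all windows. An E-box, CATGTG with T or C as the third letter, was found in Prss34 and Fcer1a (17.6% of all windows), and TATAAA in Cpa3 and Fcer1a (12.4%). Gata2 held none of these. A match of letters is not a bound site. The GATA site did not divide members by direction, since Cpa3 and Cma1 on one side and Prss34 and Fcer1a on the other hold it. TATAAA was also on both sides, in Cpa3 and Fcer1a. The Spi1 core and the E-box were found only in members that were higher with TMM scaling. Whether any match bears on direction was not tested.

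The 4 windows of granule proteases are shown because these genes lie on both sides of 0 with TMM scaling. Capitals mark a GATA site in Cpa3, Cma1 and Prss34 and the Spi1 core in Mcpt8, where its reverse complement is read. The Mcpt8 window overlaps the Mcpt8 gene as counted here, and this core falls within the overlap. The window of Hdc, not shown, lies wholly inside the counted Hdc gene. Counting back from -1 at the last base before the start, the capitals begin at -46 in Cpa3, -79 in Cma1, -65 in Mcpt8 and -31 in Prss34.
Cpa3 promoter (chr3:20242182-20242431, - strand): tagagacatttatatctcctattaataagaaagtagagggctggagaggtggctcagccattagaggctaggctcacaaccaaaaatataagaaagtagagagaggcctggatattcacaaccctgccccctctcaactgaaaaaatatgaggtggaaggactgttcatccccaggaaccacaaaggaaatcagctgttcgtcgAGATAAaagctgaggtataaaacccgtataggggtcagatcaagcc
Cma1 promoter (chr14:55944676-55944925, - strand): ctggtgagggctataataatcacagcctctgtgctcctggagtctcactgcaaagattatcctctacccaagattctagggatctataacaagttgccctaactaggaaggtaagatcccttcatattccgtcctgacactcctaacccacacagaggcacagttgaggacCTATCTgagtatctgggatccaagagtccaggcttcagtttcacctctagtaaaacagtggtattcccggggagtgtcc
Mcpt8 promoter (chr14:56085198-56085447, - strand): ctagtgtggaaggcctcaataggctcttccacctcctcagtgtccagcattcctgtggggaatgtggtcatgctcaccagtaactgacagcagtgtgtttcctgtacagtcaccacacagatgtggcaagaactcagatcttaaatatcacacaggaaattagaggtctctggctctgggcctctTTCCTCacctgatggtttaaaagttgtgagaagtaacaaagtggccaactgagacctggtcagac
Prss34 promoter (chr17:25298144-25298393, + strand): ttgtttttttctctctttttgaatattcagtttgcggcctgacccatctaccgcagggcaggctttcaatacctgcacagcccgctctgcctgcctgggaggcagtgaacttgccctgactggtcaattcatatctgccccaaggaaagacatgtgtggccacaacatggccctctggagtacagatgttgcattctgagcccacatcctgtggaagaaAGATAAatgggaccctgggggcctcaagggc

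Other genes of the same cells and pathways were followed in 6 lists of 84 genes, of which 65 could be tested. These lists were drawn up with earlier results of these data known. Of the 65, 9 fell and 0 rose past both thresholds, against 5.3% and 1.37% of all tested genes. At the adjusted p alone 37 were lower and 12 higher, against 24.6% and 20.8% of all tested genes. These backgrounds apply to each list described next with TMM scaling. Scaled to the T cell markers, 33 of the 65 were lower past both thresholds and 0 higher, against 2540 and 51 of all 14883 tested genes. Those backgrounds apply to the list counts given under that scaling. Of the 12 higher genes, 11 turned below 0 under that scaling, and Gata1 was at 0.089 (standard error 0.082, adjusted p = 0.32), no longer past the threshold. The median log2 fold change was -0.42, against 0.019 over all tested genes.

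Of 18 other mast cell genes, 8 could be tested, 3 of them fell and 0 rose past both thresholds, with a median log2 fold change of -0.40. Tpsg1, the membrane-bound tryptase, had 135, 133 and 116 counts in the control libraries and 10, 15 and 11 in the DB2313 libraries, a log2 fold change of -3.46 (standard error 0.24, adjusted p = 1.52e-11). Hpgds, which makes prostaglandin D, fell from 27.0 ± 1.15 to 11.8 ± 0.344 CPM (SD, n = 3 each, log2 fold change -1.19, standard error 0.088, adjusted p = 7.52e-11). Tph1, the tryptophan hydroxylase that mast cells use to make serotonin, fell from 6.10 ± 1.22 to 1.76 ± 0.133 CPM (SD, n = 3 each, log2 fold change -1.79, standard error 0.21, adjusted p = 2.42e-07). Kit was slightly higher at the adjusted p alone, from 74.8 ± 3.19 to 81.9 ± 1.27 CPM (SD, n = 3 each, log2 fold change 0.13, standard error 0.048, adjusted p = 0.0282), but was at -0.46 with scaling to the T cell markers. Its call at the adjusted p was also lost with DESeq2 (adjusted p = 0.0807) and in edgeR without control replicate 2 (0.158), DB2313 replicate 1 (0.0885) or DB2313 replicate 3 (0.0504). Ndst2, an enzyme of heparin synthesis, was lower at the adjusted p alone, at -0.50.

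Several genes that mark mature tissue mast cells were near the limit of detection in every library. Mcpt4, the chymase of connective tissue mast cells, had 0 counts in each control library and 0, 1 and 1 in the DB2313 libraries. Mrgprb2, their receptor for basic peptides, had 1, 1 and 3 counts and then 0 in each. The mucosal mast cell protease Mcpt1 had 0 counts in each control library and 2, 2 and 1 in the DB2313 libraries. Mcpt9 and Mrgprb13 had 0 counts throughout.

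Of 13 other basophil genes, 12 could be tested, 2 fell and 0 rose past both thresholds, with a median of -0.25. Csf2rb2, the beta chain that serves the interleukin 3 receptor of the mouse, fell from 605.4 ± 10.6 to 230.5 ± 4.31 CPM (SD, n = 3 each, log2 fold change -1.39, standard error 0.033, adjusted p = 5.92e-20), although 18.9% of its 50-base windows are shared with other genes, most often Csf2rb. Cd200r4, an activating receptor, fell from 70.8 ± 3.95 to 33.3 ± 5.07 CPM (SD, n = 3 each, log2 fold change -1.09, standard error 0.079, adjusted p = 5.41e-11) but was at -0.99 with library size scaling and at -0.97 without DB2313 replicate 2, which put it inside the fold threshold. Its relative Cd200r3, used to identify basophils, was lower at the adjusted p alone, from 33.4 ± 0.414 to 25.7 ± 1.90 CPM (SD, n = 3 each, log2 fold change -0.38, adjusted p = 0.000206).

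The receptors of basophil cytokines had unlike values. Il1rl1, the interleukin 33 receptor, was lower at the adjusted p alone, from 52.3 ± 2.17 to 30.9 ± 0.876 CPM (SD, n = 3 each, log2 fold change -0.76, adjusted p = 6.63e-10), whereas Il3ra, the alpha chain for interleukin 3, was at a log2 fold change of 0.10 (adjusted p = 0.249) that was -0.49 with scaling to the T cell markers. Il18r1 and Itga2 were higher at the adjusted p alone, at 0.36 and 0.39, and Cyp11a1 lower at -0.12. Il4, a cytokine of basophils and of some T cells, had 36, 30 and 35 counts in the control libraries and 41, 30 and 35 in the DB2313 libraries (log2 fold change 0.0031, adjusted p = 0.994). Its sign changed with the scaling and with the library left out.

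In IgE receptor signalling, all 17 genes could be tested and 0 passed both thresholds, although 9 were lower past both with scaling to the T cell markers. At the adjusted p alone 11 were lower and 3 higher, and the median log2 fold change was -0.42. Fcer1g, the gamma chain that the IgE receptor shares with other Fc receptors of myeloid cells, was lower at 234.7 ± 13.1 CPM against 357.9 ± 6.98 CPM (SD, n = 3 each, log2 fold change -0.61, standard error 0.038, adjusted p = 3.88e-12). The log2 fold changes of the 3 receptor chains were 0.50 for alpha, 0.10 for beta and -0.61 for gamma. The genes of this list that were higher at the adjusted p alone were Lat, Fyn and Plcg1, at 0.59, 0.32 and 0.33.

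Of 14 transcription factors of mast cells and basophils, 0 passed both thresholds, although 4 were lower past both with scaling to the T cell markers. At the adjusted p alone 5 were lower and 5 higher, with a median of 0.023. Gata1, the relative of Gata2 that takes part in mast cell, basophil and erythroid development, was higher at 36.0 ± 4.02 CPM against 22.4 ± 0.377 CPM (SD, n = 3 each, log2 fold change 0.68, standard error 0.082, adjusted p = 2.43e-07), a call lost with scaling to the T cell markers. Its ratio to Gata2 within a library was 0.330 ± 0.00869 for control and 0.535 ± 0.0374 for DB2313 samples (SD, n = 3 each), without overlap. Mitf, a factor of mast cell differentiation, was lower at 10.8 ± 1.31 CPM against 19.3 ± 3.72 CPM (SD, n = 3 each, log2 fold change -0.84, standard error 0.13, adjusted p = 8.07e-06).

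Spi1 itself, the target of DB2313 and a factor of myeloid cells in general, was lower at 155.6 ± 6.20 CPM against 286.3 ± 6.75 CPM (SD, n = 3 each, log2 fold change -0.88, standard error 0.037, adjusted p = 2.58e-15). The other lower factors were Lmo2 at -0.49, Runx1 at -0.32 and Stat5a at -0.21. Zfpm1, the cofactor of Gata1, was higher at 0.30, as were Ikzf1 at 0.27, Stat5b at 0.19 and Cebpa at 0.15, all at the adjusted p alone.

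Genes that handle histamine and leukotrienes had the lowest median of the 6 lists, -0.92. Of 11 genes 10 could be tested, 3 fell and 0 rose past both thresholds, and at the adjusted p alone 9 were lower and 1, the transporter Slc22a3, was higher at 0.54. Hnmt, which inactivates histamine by methylation, fell from 4.85 ± 0.877 to 1.14 ± 0.385 CPM (SD, n = 3 each, log2 fold change -2.09, standard error 0.27, adjusted p = 6.00e-07). Hrh1, a histamine receptor, had 55, 38 and 32 counts and then 16, 12 and 6 (log2 fold change -1.92, standard error 0.37, adjusted p = 0.000144). Aoc1, a diamine oxidase that degrades histamine, had 35, 37 and 31 counts and then 21, 12 and 17 (log2 fold change -1.10, standard error 0.32, adjusted p = 0.00758), and was at -0.95 without DB2313 replicate 2. Hdc, the member that makes histamine, was at -0.18, nearer to 0 than any of these.

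Of 11 growth signals, 4 could be tested, 1 fell and 0 rose past both thresholds, with a median of -0.54. Csf2rb, the beta chain shared by the receptors for interleukin 3, interleukin 5 and GM-CSF, fell from 1162 ± 39.9 to 475.4 ± 15.1 CPM (SD, n = 3 each, log2 fold change -1.29, standard error 0.034, adjusted p = 3.83e-19), with 12.3% of its 50-base windows shared with other genes, most often Csf2rb2. Crlf2 and Csf2 were lower at the adjusted p alone, at -0.28 and -0.80. Il3, which activated T cells can make, had 16, 8 and 4 counts in the control libraries and 5, 8 and 1 in the DB2313 libraries, too few to test.

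**Figure D5:**
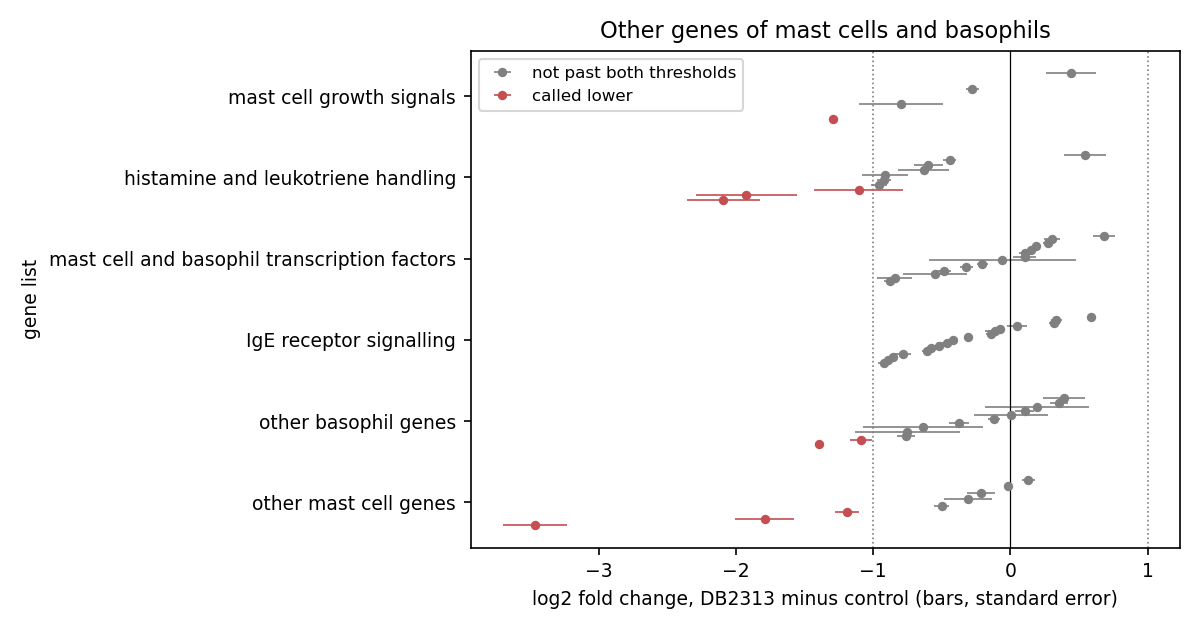
Log2 fold change (DB2313 minus control) of the 65 tested genes of the 6 lists, with standard errors; dotted lines mark the fold threshold and red points are genes past both thresholds. The 9 red points all lie on the lower side, from Tpsg1 at -3.46 to Cd200r4 at -1.09.

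Markers of other cells moved between the groups as well, and their part in the members' values was not tested. The 20 T cell markers took 0.319% to 0.322% of counts in the control libraries and 0.515% to 0.518% in the DB2313 libraries, with all 20 higher at the adjusted p alone and a median log2 fold change of 0.61. Of 22 macrophage markers, 11 fell and 0 rose past both thresholds, and their sum went from between 1.41% and 1.44% to between 0.577% and 0.586%, with Vsig4 at 0 counts. Of 10 neutrophil markers, 7 fell and Retnlg rose, and their sum went from between 0.193% and 0.194% to between 0.0724% and 0.0743%.

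Of 6 granule genes of early myeloid progenitors, Elane and Prss57 rose, and their sum was 0.0484% to 0.0505% in the control libraries and 0.101% to 0.103% in the DB2313 libraries. Of 8 eosinophil markers, Siglecf and Ear6 fell, and the sum was 0.00994% to 0.0104% against 0.00687% to 0.00756%. Clec9a and Cd209a fell among 7 dendritic cell markers (0.0118% to 0.0124% against 0.00998% to 0.0105%, Siglech at 0), and Pf4 rose among 6 megakaryocyte markers (0.0247% to 0.0253% against 0.0419% to 0.0448%, Gp1bb at 0). No B cell marker passed both thresholds (0.00405% to 0.00446% against 0.00620% to 0.00636%), and Cd34 and Procr fell among 6 stem cell markers (0.00855% to 0.00889% against 0.00267% to 0.00271%).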

How the data were processed

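RNA of 3 control and 3 DB2313 samples was sequenced. The submitters' processing notes list CASAVA 1.8, HISAT2 2.0.5 and featureCounts 1.5.0-p3, whereas the study's methods name LifeScope. The authors deposited raw counts per gene, without normalization. The build and strand setting are not given in the sources used here, but 98.3% of the 54409 genes shared with GENCODE M21, including 8 of the 10 members, have its GRCm38 coordinates. Columns were matched to samples by label.

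Counts were filtered by expression (filterByExpr), TMM-normalized and tested over all genes with edgeR 4.0.16 (glmQLFit, glmQLFTest) in R 4.3.3, with Benjamini-Hochberg adjustment. Standard errors came from the fitted change and its test. The fit was tested on simulated counts. Where no read was counted, up to 3 counts are allowed for, a limit for counting error alone, as PCR copies cannot be told from separate molecules. Alternatives were DESeq2 1.42.0, the study's tool, library size, upper quartile and T cell marker scaling, no filter, a stricter filter, a replicate block, leaving out each library, and the adjusted p alone.

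The members and lists were chosen with earlier results of these data known. Genes named were the members, up to 4 called genes per list, fixed genes such as Kit, Il4 and Spi1, and neighbours; other list genes were named after their values were seen. 1 neighbour is not reported here.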

Additional observations from a re-analysis of the deposited data

How the results depend on the processing

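With 3 samples a group and coverage of 16611975 to 18596217 counts, genes of very few counts, such as Tpsab1, Mcpt1 and Mcpt4, could not be tested. The 3 members lower past both thresholds numbered 3 under each alternative but the adjusted p alone, and 0 members were higher. The replicate numbers did not pair the samples, with correlations of same-numbered deviations between -0.011 and 0.0025, and a fit with a replicate block gave 790 lower and 201 higher genes, 3 lower members and 9 lower genes of the lists, changing no call past both thresholds among the 27 single genes compared. DESeq2 gave 744 lower and 162 higher genes. Leaving out each library gave 766 to 828 lower and 204 to 223 higher genes, 3 lower members and 7 to 10 lower list genes.

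Scaling to the T cell markers gave 2540 lower and 51 higher genes (98.0% of calls lower, against 79.5%) and 33 lower list genes, and turned the log2 fold changes of Mcpt8 (-0.068), Prss34 (-0.20), Fcer1a (-0.097), Ms4a2 (-0.49), Kit (-0.46), Il3ra (-0.49) and Il4 (-0.59). The median of all genes was 0.11 with library size scaling. Gata2 turned to 0.076 with library size and 0.045 with upper quartile scaling, and without single libraries ranged from -0.049 to 0.010; Il4 ranged from -0.096 to 0.075. At least 10 counts in every sample left 103 higher and 581 lower genes. With the adjusted p alone, 3667 genes were lower and 3096 higher, as were 4 and 3 members and 37 and 12 list genes. Of 377 comparisons of single genes, 347 kept direction and side of the threshold, 3 lost a call, 15 gained one and 12 turned; among the members these were 115, 0, 4 and 7 of 126. Apart from these turns, the causes of which were not tested, none of the 27 genes compared changed direction.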
